A study of Mus musculus with 5 samples.

Results

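The striatum of mice 4 hours after a stroke was compared with sham striatum across all genes of 1 deposited expression table. The comparison takes 2 of the 5 libraries of the study, chosen by their labels: the 4-hour stroke library and the sham library. The table lists 19221 genes, and 12783 of them reached at least 1 RPKM in at least 1 of the 5 libraries and were compared. RPKM, reads scaled by transcript length and by library total, is a level per length. Of the genes compared, 10089 are protein coding.

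All animals were male C57BL/6 mice aged 9 weeks. In photothrombosis a laser excites the dye rose bengal in the blood, and clots form in the lit vessels. The dye was injected intraperitoneally at 100 mg/kg, 5 min before light of 532 nm and 30 mW was led for 2 min through an optical fibre into the caudate putamen, 3 mm below the dura. The caudate putamen is the dorsal striatum of the mouse. The 4-hour library is a pool of punches from the focal region on the right side of 6 animals. The sham library is a mix of punches from the left side of the mice, where the fibre was placed as well and the laser was applied before the dye. Both groups therefore carried a fibre track and had been lit. The mice of the sham pool had a stroke in the other hemisphere, and the sources used here give neither their number nor their times after surgery. The time since the fibre was inserted thus cannot be told apart from the clot in this comparison. The stroke libraries of day 1, day 3 and day 10, each from 6 animals, are given for context.

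Brain tissue deprived of blood flow runs short of oxygen and glucose, neurons depolarise and glutamate is released. Within minutes to hours, calcium and kinase signalling switches on immediate early genes, whose promoters respond without new protein synthesis, while stress hormones, misfolded protein and low oxygen each have target genes of their own. Astrocytes, microglia and invading leukocytes respond over the following days with structural, interferon-stimulated and antigen-presenting genes. The striatum consists mostly of inhibitory projection neurons, with few interneurons, and is crossed by bundles of myelinated axons.

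The sham and 4-hour libraries held 44924660 and 45952889 reads, recovered from the steps in the RPKM values, and the 5 libraries spanned 42261766 to 48013865. Loci of ribosomal RNA took 41.2% of the reads in sham and 26.5% at 4 hours, and the mitochondrial genome took 3.98% and 5.63%. RPKM divides by all reads, so these shares move the values of every other gene. The fold of a gene was log2((4-hour RPKM + 1) / (sham RPKM + 1)), called the log2 fold below, which understates the differences of genes of low level. Its median over all 12783 genes was 0.28, with quartiles of 0.04 and 0.51, and 78.1% of the genes had a value above 0. After median-of-ratios scaling, which divided the 4-hour values by a factor of 0.41 on the log2 scale, the median was -0.01. A log2 fold near 0.28 is therefore that of an ordinary gene, and scaled values are given for the lists and for each gene whose 2-fold call ends with scaling. Of the 79 higher genes that the rule for named genes picked, 42 kept the call with scaling. Each group is 1 library, so no value below has a replicate check, and all of them describe these libraries only. Counting intervals of a ratio of RPKM values are exact and conditional at 95%. They use recovered reads divided by 2, because both mates of a pair may have been counted, and they cover counting error only. Genes without recoverable whole reads have no interval.

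Levels in the text are listed in the order sham, 4 hours, day 1, day 3 and day 10. As a check of the tissue, markers of striatal projection neurons were abundant in both libraries. Ppp1r1b, which encodes the dopamine-regulated phosphatase inhibitor DARPP-32, stood at 1019, 1004, 476, 657 and 849 RPKM. Drd2, the dopamine receptor of the indirect pathway, stood at 73.8, 73.1, 36, 55.1 and 69.5 RPKM. The sham and 4-hour levels of both genes were close to each other, with log2 folds of -0.02 and -0.02, and both were lower at day 1. Both lie below the median log2 fold of all genes, and their scaled log2 folds were -0.43 and -0.41. In bulk tissue, fewer cells of a type and less RNA per cell cannot be told apart, here and in all lists of cell type genes.

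At 4 hours, the higher genes included members of the immediate early and glucocorticoid responses, of myelin and of the choroid plexus, and the lower genes included many of reactive astrocytes, interferon signalling and MHC class I. Of all genes compared, 281 (2.20%) were at least 2-fold higher than in sham by the log2 fold, and 139 (1.09%) were at least 2-fold lower. Among protein-coding genes the counts were 189 (1.87%) higher and 43 (0.426%) lower. With median-of-ratios scaling the balance turned, with 69 genes (0.540%) higher and 260 (2.03%) lower. A counting interval could be computed for 252 of the 281 higher genes and lay above 1 for 243. It could be computed for 133 of the 139 lower genes and lay below 1 for 117. Of the higher protein-coding genes 58 of 189 belonged to any of 58 gene lists of processes and cell types, as did 32 of the 43 lower ones and 10.2% of all protein-coding genes. The lists were chosen with earlier results of these data known, so these shares are a description only. Lists share members, so counts over lists cannot be added. Exons of 48 of the 189 higher and 11 of the 43 lower genes overlap an exon on the opposite strand. The strand setting of the counting is not stated, and reads of such partners cannot be told apart.

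**Figure D1:**
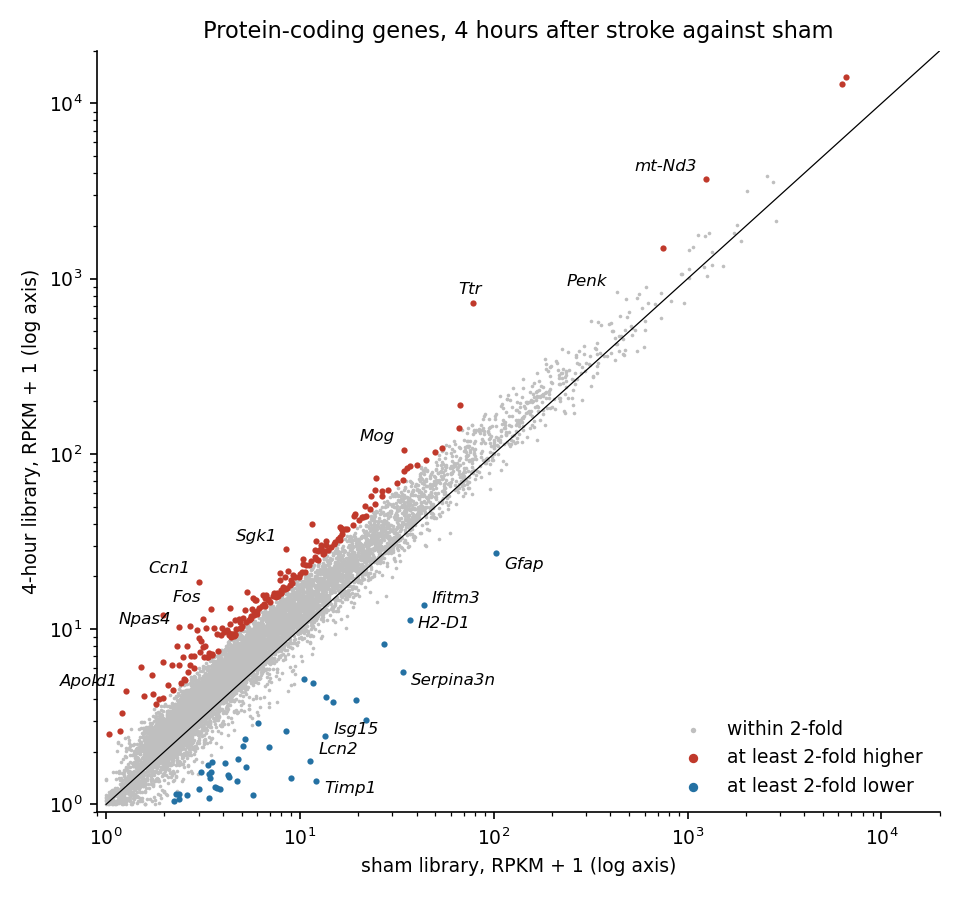
Each point is 1 of 10089 protein-coding genes, with its level in the sham library on the horizontal axis and in the 4-hour library on the vertical axis, both as RPKM + 1 on log axes, and the line marks equal levels. The 189 genes at least 2-fold higher form the upper edge of a broad cloud that lies above the line, and the 43 genes at least 2-fold lower lie apart from the cloud, Timp1 farthest by log2 fold.

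The place of the 4-hour library in the time course differed between the sides. Of the 189 higher protein-coding genes, 176 had their highest level of all 5 libraries at 4 hours, against 54.0% of all protein-coding genes. Of the 43 lower genes, 42 had their lowest level at 4 hours, against 8.49% of all. The median level of the higher genes was 5.88 RPKM in sham and 14.5 at 4 hours, then 8.57, 6.51 and 6.74 on days 1, 3 and 10. That of the lower genes was 4.11, 0.679, 5.22, 13.3 and 16.7 RPKM, below sham at 4 hours and above it from day 1 on. Since both sides were chosen by the 4-hour and sham values, an extreme at 4 hours is favoured by the choice. The later levels did not enter the fold, but they are not independent of the choice either. A gene could pass the filter through a later library alone, and the sham level they are set against was used in the choice.

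**Figure D2:**
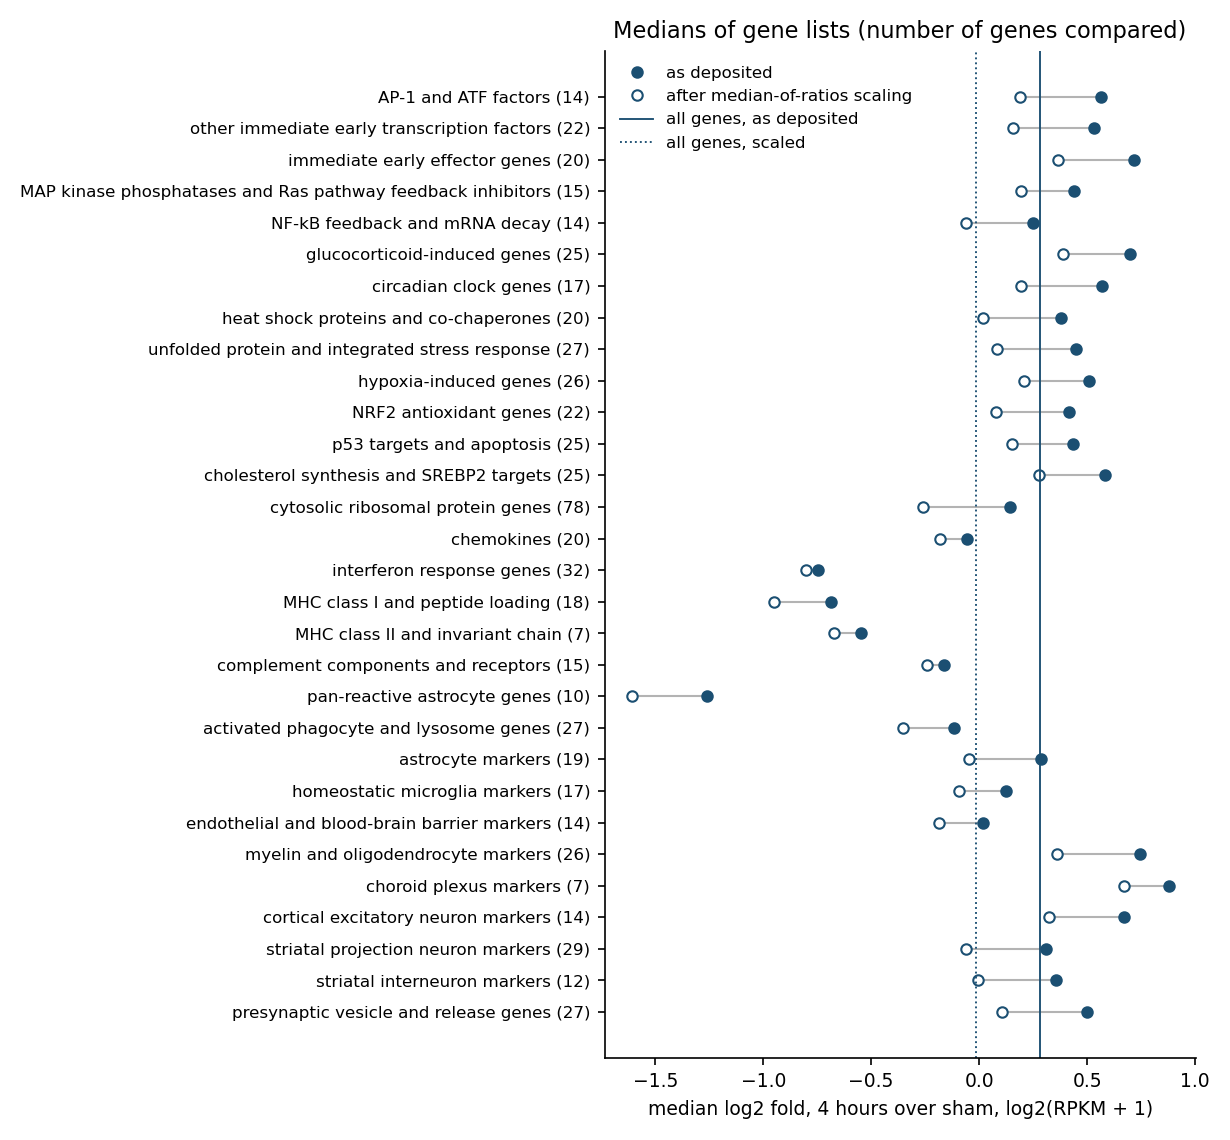
Each row is a gene list with the number of its genes compared, and the horizontal axis is the median log2 fold of 4 hours over sham, filled as deposited and open after median-of-ratios scaling. Vertical lines mark the median of all genes, 0.28 as deposited and -0.01 scaled. The pan-reactive astrocyte, interferon and MHC class I lists lie far to the left of both lines, and the choroid plexus, myelin and immediate early lists to the right.

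The AP-1 and ATF factors, which pair to bind DNA and are the classical first responders to synaptic and stress signals, had several members that were higher at 4 hours. Of 14 compared, 5 were at least 2-fold higher (4 with scaling) and none lower, and the list median was 0.57 (0.19 scaled), beside 0.28 for all genes. Fos (chr12:85473890-85477273, + strand; positions are those of GENCODE on GRCm38) was at 2.48 RPKM in sham and 12.1 at 4 hours, then 9.46, 3.09 and 2.58 on days 1, 3 and 10, with a log2 fold of 1.91, 1.54 scaled (ratio 4.88, counting interval 4.05 to 5.94). Its relative Fosb was at 1.19, 5.28, 2.72, 0.902 and 0.994 RPKM (log2 fold 1.52; ratio 4.44, counting interval 3.76 to 5.31). Both were highest at 4 hours, and Fosb was back below its sham level at day 3 while Fos was not. Jun, the partner of Fos, was at 5.65, 14.7, 13.8, 9.76 and 6.9 RPKM (log2 fold 1.24, 0.86 scaled; ratio 2.6, counting interval 2.31 to 2.92), and overlaps the antisense gene Junos. Atf3, a stress-responsive repressor, was at 0.961, 5.48, 16.4, 9.49 and 3.62 RPKM, and Maff, a small Maf protein, was at 2.1, 7.53, 12, 4.28 and 1.73 RPKM. Unlike Fos, these last genes were higher at day 1 than at 4 hours, with 4-hour log2 folds of 1.72 and 1.46. Of the other members, Junb and Jund were the most abundant, with log2 folds of 0.56 and 0.24. Jund lies below the median of all genes, and its scaled value was -0.16.

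Among the other immediate early transcription factors, 4 of 22 compared were at least 2-fold higher (2 with scaling) and none lower (median 0.53, 0.16 scaled). Npas4 (chr19:4984355-4990316, - strand), a factor made in neurons upon calcium entry, was at 1.39, 9.36, 2.46, 2.17 and 2.01 RPKM, with a log2 fold of 2.12, 1.76 scaled. It stood apart from the later libraries, which lay between 2.01 and 2.46 RPKM. Btg2, an antiproliferative cofactor, was at 1.74, 6.02, 2.78, 1.79 and 2.3 RPKM (log2 fold 1.36; ratio 3.45, counting interval 2.77 to 4.3). Ier2 was at 2.94, 8.26, 7.74, 5.75 and 4.54 RPKM (log2 fold 1.23, 0.88 scaled) and Klf10, a TGF-beta inducible zinc finger factor, at 1.86, 4.97, 2.54, 2.31 and 1.39 RPKM (log2 fold 1.06, 0.74 scaled). Several textbook members of this class were less changed. Egr1, a zinc finger factor that is abundant in resting striatum, was at 20.8, 29.8, 16.2, 16.3 and 20.3 RPKM, with a log2 fold of 0.50, 0.11 scaled. Nab2, a corepressor of Egr factors, was at 11, 9.07, 9.33, 13.9 and 12.8 RPKM (log2 fold -0.25), and Cebpd was at 7.49 against 7.33 RPKM (log2 fold 0.03, -0.32 scaled).

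The immediate early effectors, which act on the matrix, the synapse and the cell cycle, had 5 of 20 members at least 2-fold higher, 3 with scaling (median 0.72, 0.37 scaled). Ccn1 (chr3:145646976-145649981, - strand), a secreted matricellular protein, was at 2.02 RPKM in sham and 17.7 at 4 hours, then 16.5, 5.7 and 2.46 on days 1, 3 and 10, with a log2 fold of 2.63, 2.25 scaled (ratio 8.76, counting interval 7.02 to 10.9). Its relative Ccn2 was at 4.53, 10.5, 6.99, 5.62 and 5.07 RPKM (log2 fold 1.05, 0.69 scaled). Gadd45b and Gadd45g, regulators of stress kinases and DNA demethylation, were at 6.88, 19.9, 25.6, 8.26 and 6.89 RPKM (log2 fold 1.41) and 10.4, 23.5, 35, 14.7 and 10.7 RPKM (log2 fold 1.11, 0.72 scaled). Both were higher still at day 1. Nrn1, a neurite growth factor on the neuronal surface, was at 3.37, 12.2, 6.97, 3.16 and 3.5 RPKM (log2 fold 1.6; ratio 3.63, counting interval 3.06 to 4.33), and it is also in the cortical neuron list. Arc, which is brought to active synapses, was the exception among abundant members, at 25.8, 23.1, 21.1, 32.8 and 33.5 RPKM with a log2 fold of -0.15, -0.54 scaled. Homer1 was at 1.63 against 1.46 RPKM (log2 fold 0.09). Apold1 (chr6:134981718-134986836, + strand), an endothelial immediate early gene that is in none of the lists, had one of the largest ratios, at 0.268, 3.46, 0.508, 0.265 and 0.222 RPKM (log2 fold 1.81, 1.51 scaled; ratio 12.9, counting interval 8.14 to 20.4). It was low in every library but that of 4 hours.

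Negative regulators of these pathways were among the higher genes. Of 15 MAP kinase phosphatases and Ras pathway feedback inhibitors, 3 were at least 2-fold higher (2 with scaling), and the median was 0.44 (0.19 scaled). Errfi1, an inhibitor of the EGF receptor, was at 2.26, 9.18, 3.06, 1.7 and 1.8 RPKM (log2 fold 1.64; ratio 4.06, counting interval 3.45 to 4.79). Rasd1, a small G protein induced by dexamethasone, was at 1.49, 5.92, 1.3, 0.823 and 0.905 RPKM (log2 fold 1.47; ratio 3.96, counting interval 2.93 to 5.44). Dusp1, which removes phosphate from stress kinases, was at 7.39, 18.7, 9.69, 9.23 and 8.46 RPKM (log2 fold 1.24, 0.85 scaled; ratio 2.54, no interval). Rasd1 was below its sham level from day 1 on and Errfi1 from day 3 on. In the NF-kB feedback and mRNA decay list 1 of 14 was at least 2-fold higher, and its median of 0.25 turned to -0.06 with scaling. That member, Zfp36, which binds AU-rich elements of inflammatory mRNAs and speeds their decay, was at 1.31, 7.0, 5.87, 3.32 and 2.8 RPKM (log2 fold 1.79; ratio 5.35, counting interval 4.32 to 6.67). Zfp36 overlaps Gm44710 on the opposite strand. Nfkbia, the inhibitor of NF-kB that NF-kB itself switches on, was at 26.8 against 13 RPKM (log2 fold 0.99), whereas Bcl3 was at 0.202 against 0.944 RPKM (log2 fold -0.69).

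**Figure D3:**
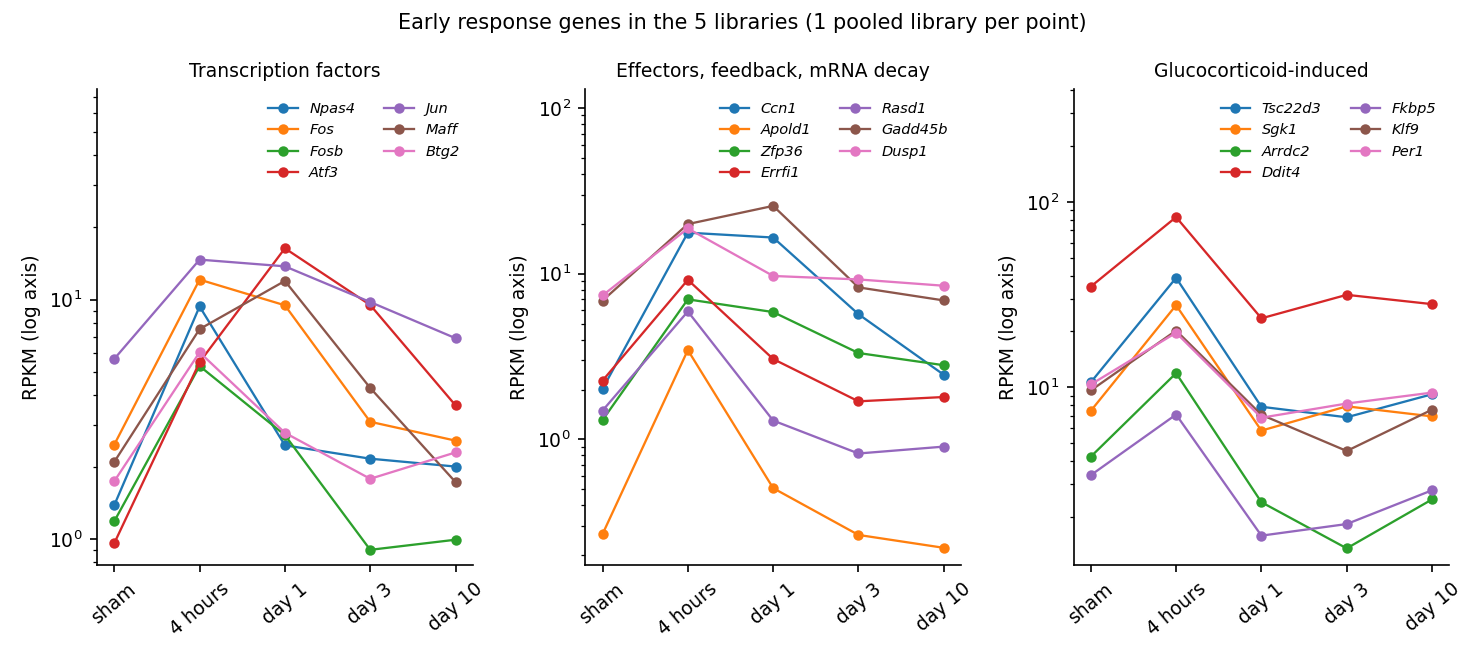
RPKM on a log axis against the 5 libraries in time order, for 7 transcription factors, 7 effector, feedback and mRNA decay genes and 7 glucocorticoid-induced genes, each point 1 pooled library. All 21 genes, chosen from their lists, are higher at 4 hours than in sham. The 7 glucocorticoid-induced genes of the third panel are below sham at day 1, while Atf3, Maff and Gadd45b are highest there. Other members of the glucocorticoid list, Cdkn1a, Dusp1, Errfi1 and Mt1 among them, were above sham at day 1. The summed level of its 25 compared genes was 1006 RPKM in sham and 3658 at day 1.

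The promoters of the higher genes were read from the RefSeq promoter table of GRCm38.p6, which gives 250 bases before to 50 bases after a start site and held an entry for 7766 of the 10089 protein-coding genes. A full cAMP response element, TGACGTCA on either strand, the site of the calcium- and cAMP-regulated factor CREB, occurred in 11 of the 141 higher genes with an entry (7.80%), in none of 38 lower genes and in 3.10% of all 7766. The 11 genes included Btg2, Dusp1 and Ppp1r15a, and their sites are shown in capitals with the surrounding bases, since these 3 of the 11 are described in the text. The early-response genes Plk2, Scg2, Dusp8 and Hlf hold the element too and did not pass the limit. The CArG box of serum response factor occurred in 3 of the 141 (2.13%), in none of the 38 and in 1.36% of all. One of those genes was Zfp36, whose box is in capitals as well. The AP-1 site TGACTCA occurred in 2 of the 141 (1.42%), in 2 of the 38 (5.26%, Cxcl10 and Gbp2) and in 3.41% of all. These are matches of letters in a short window and say nothing of binding.
Dusp1, chr17:26508568-26508655, - strand: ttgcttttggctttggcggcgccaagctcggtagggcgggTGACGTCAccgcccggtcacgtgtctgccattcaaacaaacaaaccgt
Ppp1r15a, chr7:45526269-45526320, - strand: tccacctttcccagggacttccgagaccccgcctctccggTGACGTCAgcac
Btg2, chr1:134079274-134079361, - strand: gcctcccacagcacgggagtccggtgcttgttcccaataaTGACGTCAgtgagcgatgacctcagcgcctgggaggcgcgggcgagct
Zfp36, chr7:28379237-28379326, - strand: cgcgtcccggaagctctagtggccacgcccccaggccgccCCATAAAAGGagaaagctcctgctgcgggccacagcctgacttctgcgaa
The element starts 143 bases before the start site in Dusp1, 12 in Ppp1r15a and 166 in Btg2, and the box of Zfp36 starts 58 bases before it.

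Some of the genes that glucocorticoids switch on were higher at 4 hours. Of 25 compared, 8 were at least 2-fold higher and 1 lower as deposited, against 3 and 1 with scaling, and the median was 0.70 (0.39 scaled). Tsc22d3 (chrX:140539528-140600659, - strand), which encodes the anti-inflammatory protein GILZ, was at 10.6 RPKM in sham and 38.9 at 4 hours, then 7.83, 6.87 and 9.14 on days 1, 3 and 10, with a log2 fold of 1.78, 1.39 scaled (ratio 3.67, counting interval 3.42 to 3.93). Sgk1, a kinase that regulates ion channels, was at 7.44, 27.7, 5.82, 7.87 and 6.95 RPKM (log2 fold 1.76; ratio 3.72, counting interval 3.44 to 4.02). Both were high at 4 hours only, and the other 4 libraries lay within 6.87 to 10.6 RPKM for Tsc22d3 and 5.82 to 7.87 for Sgk1. The same pattern held for Ddit4, an inhibitor of mTOR signalling that hypoxia also switches on, at 34.9, 82.7, 23.5, 31.5 and 28 RPKM (log2 fold 1.22, 0.82 scaled; ratio 2.37, counting interval 2.23 to 2.53), and for the arrestin-domain gene Arrdc2, at 4.21, 11.9, 2.39, 1.35 and 2.47 RPKM (log2 fold 1.31, 0.94 scaled). Cdkn1a, the cell cycle inhibitor p21, was at 11.8, 29.4, 28.1, 24.6 and 9.02 RPKM (log2 fold 1.25, 0.86 scaled) and kept its level to day 3. Errfi1 and Dusp1, given above, are members as well. Klf9 was at 9.58, 20.2, 7.09, 4.52 and 7.55 RPKM (log2 fold 1.0, 0.62 scaled), and Fkbp5, a co-chaperone of the glucocorticoid receptor, just missed the 2-fold limit at 3.34, 7.11, 1.58, 1.82 and 2.77 RPKM (log2 fold 0.90). The abundant metallothionein Mt1 was at 384, 363, 1029, 716 and 330.3 RPKM, with a log2 fold of -0.08, -0.49 scaled. The lower member was Lcn2, described with the astrocyte genes. A canonical glucocorticoid response element, GNACANNNTGTNC, occurred in 1 of the 141 higher promoters (0.709%), in 1 of the 38 lower ones (2.63%, Serpina3n) and in 0.296% of all.

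Circadian clock genes meet this response in Per1, a target of the glucocorticoid receptor. Of 17 clock genes compared, 1 was at least 2-fold higher, the repressor Ciart at 4.59, 10.9, 2.17, 4.99 and 3.2 RPKM (log2 fold 1.09, 0.72 scaled), and the median was 0.57 (0.19 scaled). Per1, a core repressor of the clock, was at 10.3, 19.6, 6.83, 8.15 and 9.34 RPKM (log2 fold 0.87, 0.48 scaled). All 17 had a log2 fold above 0 as deposited, against 78.1% of all genes. After scaling 15 did, where the median of all genes was -0.01. The sources used here do not state the clock time of tissue collection, and its part in these values was not tested.

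Of the protein-folding stress genes a few were higher. Of 20 heat shock proteins and co-chaperones, the inducible cytosolic chaperones Hspa1a and Hspa1b were at least 2-fold higher, and the list median was 0.38 (0.02 scaled). Hspa1a was at 2.18, 10.5, 38.3, 3.99 and 3.59 RPKM (log2 fold 1.85; ratio 4.82, counting interval 4.03 to 5.8) and Hspa1b at 1.96, 8.87, 35.3, 3.62 and 3.1 RPKM (log2 fold 1.74). Both were higher still at day 1. They are near-identical copies and Gm20481 overlaps Hspa1a, so the split of reads among these genes is uncertain. Hspa8, the constitutive relative and far more abundant, was at 289.7 against 167 RPKM (log2 fold 0.79, 0.39 scaled). Hspb1, a small heat shock protein of reactive astrocytes, was at 9.11, 6.04, 54.6, 17.1 and 12.2 RPKM (log2 fold -0.52, -0.86 scaled). In the unfolded protein and integrated stress response list, 3 of 27 were at least 2-fold higher (median 0.45, 0.08 scaled). Ppp1r15a, the phosphatase subunit that restarts translation, was at 5.56, 12.9, 12.3, 8.96 and 6.19 RPKM (log2 fold 1.08, 0.71 scaled; ratio 2.32, counting interval 2.05 to 2.63). Herpud1, of ER-associated degradation, was at 10.2, 22.4, 11, 13.1 and 10 RPKM (log2 fold 1.06, 0.68 scaled), and Asns, which makes asparagine, at 27.2 against 12.9 RPKM (log2 fold 1.02, 0.63 scaled). The log2 folds of the list ran from -0.35 to 1.08. Dnajb9, an ER co-chaperone, just missed the limit at 5.73 against 2.38 RPKM, and Atf4, the factor that the integrated stress response translates, was at 43.9 against 26.2 RPKM (log2 fold 0.72). At the other end Chac1 was at 2.38 against 2.52 RPKM (log2 fold -0.06), Trib3 at 0.471 against 0.618 RPKM (-0.14) and Sdf2l1, a partner of ER chaperones, at 8.11 against 10.6 RPKM (-0.35). After scaling no member of this list passed the 2-fold limit.

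Genes of low oxygen and energy supply had few members past the limit. In the hypoxia list 2 of 26 compared were at least 2-fold higher (median 0.51, 0.21 scaled). They were Ddit4, given above, and Bnip3, a mitochondrial protein of mitophagy, at 15.6, 33.7, 30.9, 22.4 and 14.7 RPKM (log2 fold 1.07, 0.68 scaled). Pgk1, a glycolytic enzyme and target of HIF, was at 97 against 51.2 RPKM (log2 fold 0.91), and Vegfa, the vascular growth factor, at 2.67 against 1.62 RPKM (log2 fold 0.49). None of the 17 glycolytic enzymes passed the limit in either direction (median 0.41, 0.01 scaled), and none of the 76 nuclear genes of oxidative phosphorylation did. The median of the latter was 0.35 as deposited and -0.04 scaled, on either side of 0. Of the 13 protein genes of the mitochondrial genome, 3 were at least 2-fold higher (1 with scaling), with a median of 0.58 (0.17 scaled). mt-Nd3, a subunit of complex I, was at 1237, 3701, 3408, 1704 and 893 RPKM (log2 fold 1.58). mt-Co1 and mt-Co3, of cytochrome oxidase, were at 14096 against 6537 RPKM (log2 fold 1.11, 0.70 scaled) and 12858 against 6268 RPKM (1.04, 0.63 scaled). By contrast mt-Nd4l was at 388 against 547 RPKM (log2 fold -0.50) and mt-Nd2 at 506 against 605 RPKM (-0.26). These genes come from shared precursors, and nuclear copies of the mitochondrial genome can share their reads, so differences among them are uncertain.

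Further stress lists held few genes past the limit. No member of the 22 NRF2 antioxidant genes passed it (median 0.42, 0.08 scaled). Within that list Hmox1, which degrades haem, was at 31.8, 23.5, 226, 343 and 16.8 RPKM (log2 fold -0.42, -0.80 scaled), far below its levels of day 1 and day 3. In the p53 and apoptosis list 3 of 25 were at least 2-fold higher, Btg2, Cdkn1a and Bnip3, all given above, and 1 with scaling (median 0.44, 0.15 scaled). Of 25 compared genes of cholesterol synthesis and of SREBP2, the sterol-sensing factor, 3 were at least 2-fold higher (1 with scaling) and all 25 had a log2 fold above 0 (median 0.58, 0.28 scaled, 19 of 25 above 0 scaled). Of all genes compared, 78.1% had a log2 fold above 0 as deposited, and their scaled median was -0.01. Msmo1, a sterol oxidase, was at 2.95, 9.14, 7.95, 2.23 and 1.79 RPKM (log2 fold 1.36; ratio 3.1, counting interval 2.77 to 3.47). Insig1, which holds the sterol sensor in the ER, was at 3.68, 9.05, 4.31, 1.8 and 2.36 RPKM (log2 fold 1.1, 0.74 scaled). Nsdhl, a sterol dehydrogenase, was at 4.16 against 1.56 RPKM (log2 fold 1.01, 0.69 scaled). Hmgcs1, an early enzyme of the pathway, was at 4.31 against 3.75 RPKM (log2 fold 0.16), under the median of all genes. Axon growth genes had 3 of 13 at least 2-fold higher, 1 with scaling (median 0.73, 0.33 scaled), namely Atf3, Jun and Stmn2, a neuronal tubulin-binding protein at 6.27, 14.5, 12.2, 7.93 and 6.2 RPKM (log2 fold 1.09, 0.71 scaled).

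In the vascular lists single genes stood out. Plat, the tissue plasminogen activator that dissolves clots, was at 2.04, 6.39, 2.17, 2.03 and 2.13 RPKM (log2 fold 1.28, 0.94 scaled; ratio 3.13, counting interval 2.74 to 3.59) and was the 1 of 14 coagulation genes past the limit (median 0.15, -0.02 scaled). Vwf, which tethers platelets, was at 0.362 against 1.21 RPKM (log2 fold -0.70). Of 14 endothelial and barrier markers 1 was at least 2-fold higher, the lipid transporter Mfsd2a at 11.7 against 4.99 RPKM (log2 fold 1.09, 0.72 scaled), and the list median was 0.02 as deposited and -0.19 scaled. The tight junction gene Cldn5 was at 22.1, 15.2, 17.8, 45.7 and 36.8 RPKM (log2 fold -0.51, -0.89 scaled).

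Cytokine genes moved in both directions. Of 20 chemokines, 2 were at least 2-fold higher and 3 lower (median -0.06, -0.18 scaled; with only genes of at least 1 RPKM in sham or at 4 hours it was 0.45). Ccl3 and Ccl4, which draw leukocytes, were at 3.37, 9.74, 69.1, 10.4 and 9.49 RPKM (log2 fold 1.3, 0.94 scaled; ratio 2.89, counting interval 2.13 to 3.95) and 3.61, 10.3, 61.3, 9.32 and 10 RPKM (log2 fold 1.3, 0.93 scaled; ratio 2.86, counting interval 2.11 to 4.03). The neighbouring monocyte attractants went the other way. Ccl12 was at 21.1 RPKM in sham and 2.03 at 4 hours, then 206, 25.7 and 15.3 on days 1, 3 and 10, with a log2 fold of -2.87, -3.12 scaled (ratio 0.0962, counting interval 0.0611 to 0.145). Ccl7 was at 4.11, 1.14, 38.7, 3.69 and 0.858 RPKM (log2 fold -1.26) and Ccl2 at 5.93, 2.58, 83, 10.4 and 2.86 RPKM (log2 fold -0.95). All of these genes were far above both levels at day 1. Cxcl10, an interferon-induced attractant of T cells, was at 7.99, 0.406, 6.69, 3.68 and 5.03 RPKM (log2 fold -2.68, -2.78 scaled; ratio 0.0508, counting interval 0.0311 to 0.0787), and it overlaps Art3 on the opposite strand. None of 16 inflammatory cytokine genes passed the limit (median 0.01, -0.10 scaled). Tnf was at 0.272, 1.09, 2.0, 0.852 and 0.724 RPKM (log2 fold 0.72) and Il1b at 0.163, 0.183, 3.45, 0.199 and 0.939 RPKM (log2 fold 0.02). Cd83, a surface protein of activated myeloid and B cells, was among the 25 highest protein-coding genes at 2.02, 7.85, 4.1, 5.42 and 14.1 RPKM (log2 fold 1.55).

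The genes that mark reactive astrocytes of any kind were lower at 4 hours than in sham. Of 10 compared, 5 were at least 2-fold lower and all 10 had a log2 fold below 0, with a median of -1.26 (-1.61 scaled). Their summed level was 181, 43.2, 551, 1057 and 471 RPKM. Timp1 (chrX:20870166-20874735, + strand), a secreted inhibitor of metalloproteinases, was at 11.1 RPKM in sham and 0.368 at 4 hours, then 60.4, 100 and 24.6 on days 1, 3 and 10, with a log2 fold of -3.15, -3.25 scaled (ratio 0.033, counting interval 0.0123 to 0.0646). Lcn2 (chr2:32384633-32388252, - strand), an iron-siderophore carrier, was at 10.3, 0.78, 38.3, 50.5 and 22.7 RPKM (log2 fold -2.66; ratio 0.0761, counting interval 0.0553 to 0.102). Serpina3n, a serine protease inhibitor, was at 33, 4.66, 99.4, 264 and 139 RPKM (log2 fold -2.59; ratio 0.141, counting interval 0.122 to 0.163). For these 3 genes the 4-hour library was the lowest of all and the sham library the second lowest. Gfap (chr11:102887336-102900912, - strand), the astrocyte intermediate filament, was at 102, 26.3, 272, 509 and 234 RPKM (log2 fold -1.91, -2.3 scaled; ratio 0.259, counting interval 0.248 to 0.27), with the same order. Vim, another filament, was at 5.9, 3.51, 13.1, 107 and 29.3 RPKM (log2 fold -0.61, -0.92 scaled), short of the limit. Cxcl10, given above, is the last of the 5. Sublists described for 2 kinds of reactive astrocyte were mixed. In the first, 3 of 9 were at least 2-fold lower and 4 of 9 had a log2 fold above 0 (median -0.52, -0.76 scaled). In the second, 2 of 7 were at least 2-fold lower and 2 of 7 were above 0 (median -0.31, -0.64 scaled). Of all genes compared, 1.09% were at least 2-fold lower. Ptx3, a soluble pattern receptor of the second kind, was at 2.4, 0.0811, 11.1, 0.591 and 1.53 RPKM (log2 fold -1.65), and Tgm1, a transglutaminase, at 4.71, 0.13, 36.2, 34.6 and 2.8 RPKM (log2 fold -2.34), with an antisense partner, Gm49067. Genes that mark astrocytes in general did not share this. None of 19 passed the limit in either direction, and their median was 0.29 as deposited and -0.05 scaled. Glul, the glutamine synthetase, was at 304 against 185 RPKM (log2 fold 0.71) and Aqp4, the water channel of astrocyte endfeet, at 0.985 against 1.6 RPKM (-0.39).

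Interferon response genes had the most lower members of the 58 gene lists. Of 47 measured genes, 32 were compared, 11 were at least 2-fold lower and none higher, 2 had a log2 fold above 0, and the median was -0.75 (-0.80 scaled). The summed level of the compared genes was 148, 48.9, 205, 805 and 599 RPKM. Isg15 (chr4:156199424-156200818, - strand), a ubiquitin-like protein that is conjugated to target proteins, was at 12.5 RPKM in sham and 1.47 at 4 hours, then 12.3, 32.9 and 26.2 on days 1, 3 and 10, with a log2 fold of -2.45, -2.68 scaled (ratio 0.118, counting interval 0.0729 to 0.175). Bst2, which tethers budding virus, was at 13.8, 2.84, 16.3, 106 and 82.1 RPKM (log2 fold -1.95; ratio 0.206, counting interval 0.152 to 0.273). Ifitm3, which blocks viral entry, was the most abundant, at 42.5, 12.8, 106, 320.4 and 137 RPKM (log2 fold -1.66; ratio 0.301, counting interval 0.257 to 0.355). Irf7, the master factor of type I interferon genes, was at 3.73, 0.363, 1.61, 13.7 and 19.5 RPKM (log2 fold -1.8; ratio 0.0973, counting interval 0.0639 to 0.138) and overlaps Phrf1 on the opposite strand. Ifit3, an inhibitor of viral translation, was at 7.51, 1.62, 3.74, 8.22 and 15.1 RPKM (log2 fold -1.7; ratio 0.216, counting interval 0.163 to 0.284). In each of these genes the 4-hour library was the lowest of the 5. Gbp2, an interferon-gamma-induced GTPase, was at 2.63, 0.259, 3.16, 2.07 and 2.96 RPKM (log2 fold -1.53; ratio 0.0988, counting interval 0.0541 to 0.169), and Igtp, a related GTPase, at 4.29, 0.646, 4.81, 4.17 and 8.19 RPKM (log2 fold -1.69), with exons shared with Irgm2. Oas1a, a sensor of double-stranded RNA, was at 2.89, 0.219, 1.57, 20.9 and 16.7 RPKM (log2 fold -1.67). Lgals3bp, a secreted glycoprotein, was at 12.7, 3.1, 5.67, 58.3 and 96.4 RPKM (log2 fold -1.74). The exceptions were Cmpk2 at 1.45 against 1.23 RPKM (log2 fold 0.13) and Ifi27 at 11.5 against 11.5 RPKM (0.00), and both were below 0 after scaling.

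Promoters of many lower genes shared a sequence feature. The interferon-stimulated response element, searched as GAAANNGAAA on both strands, is the binding site of the STAT and IRF complexes that interferon activates. It occurred in 15 of 38 lower genes with a promoter entry (39.5%), in 4 of 141 higher genes (2.84%) and in 2.92% of all 7766. The genes were Bst2, Cxcl10, Fcgr4, Gbp2, Gm7030, Ifit3, Ifit3b, Ifitm3, Igtp, Isg15, Oas1a, Oas1g, Tgm1, Tgtp1 and Tgtp2. Ifit3 and Ifit3b, Oas1a and Oas1g, and Tgtp1 and Tgtp2 are related copies, so they are not separate cases. In the interferon response list 12 of 25 genes with an entry (48%) held the element. Its presence was not separated from membership of that list. The cAMP response element occurred in 0 of the 38. Windows of 6 of the named genes are shown, with the element in capitals in its orientation on the gene's strand.
Isg15, chr4:156200835-156200936, - strand: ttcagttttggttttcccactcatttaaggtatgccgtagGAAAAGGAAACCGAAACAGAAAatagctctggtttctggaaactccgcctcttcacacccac
Ifit3, chr19:34583333-34583456, + strand: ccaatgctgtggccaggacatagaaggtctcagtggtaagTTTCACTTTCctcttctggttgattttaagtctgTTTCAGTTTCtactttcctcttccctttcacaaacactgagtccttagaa
Bst2, chr8:71537547-71537642, - strand: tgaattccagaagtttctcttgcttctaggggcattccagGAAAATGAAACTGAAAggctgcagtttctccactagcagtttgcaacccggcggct
Cxcl10, chr5:92349053-92349139, - strand: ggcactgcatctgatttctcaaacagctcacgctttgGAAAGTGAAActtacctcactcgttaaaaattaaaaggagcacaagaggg
Gbp2, chr3:142620564-142620653, + strand: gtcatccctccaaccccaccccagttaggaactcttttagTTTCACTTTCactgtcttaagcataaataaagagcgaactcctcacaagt
Igtp, chr11:58199482-58199555, + strand: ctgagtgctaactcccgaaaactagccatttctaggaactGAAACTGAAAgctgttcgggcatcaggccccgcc
The Isg15 window holds 3 overlapping matches, that of Bst2 holds 2 overlapping ones and that of Ifit3 holds 2 apart from each other. In Ifit3 and Gbp2 the match is on the opposite strand and so reads TTTC.

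The MHC class I genes, which present peptides to T cells, were lower together with the machinery that makes and loads the peptides. Of 18 compared, 7 were at least 2-fold lower and all 18 had a log2 fold below 0, with a median of -0.68 (-0.95 scaled) and a summed level of 197, 104, 246, 757 and 972 RPKM. The classical chains H2-K1 and H2-D1 were at 26.1, 7.18, 16, 125 and 187 RPKM (log2 fold -1.73) and 35.8, 10.3, 25.6, 134 and 254 RPKM (log2 fold -1.71; ratio 0.287, counting interval 0.262 to 0.314). B2m, the light chain they share, was at 51.3, 31.6, 98.5, 249 and 238 RPKM (log2 fold -0.68, -1.07 scaled), short of the limit. Of the nonclassical genes H2-Q6 was at 3.32, 0.438, 1.13, 11 and 24.8 RPKM (log2 fold -1.59), and H2-Q4 and H2-Q7 had log2 folds of -1.25 and -1.3. These genes are close copies of each other, so the division of reads among them is uncertain. Psmb8, an inducible subunit of the immunoproteasome, was at 3.81, 0.819, 3.85, 18 and 21.3 RPKM (log2 fold -1.4) and overlaps Gm20496. It was the only 1 of 36 proteasome subunits past the limit in either direction (list median 0.52, 0.18 scaled). The inducible subunit Psmb9 was at 0.149 against 0.846 RPKM (log2 fold -0.68), while Psmb5, the constitutive counterpart of Psmb8, was at 112 against 102 RPKM (0.13, -0.27 scaled). Tap1, the peptide transporter, was at 1.3, 0.147, 1.48, 5.12 and 5.39 RPKM (log2 fold -1.0) and overlaps Psmb9. Among 7 MHC class II genes the invariant chain Cd74 was at least 2-fold lower, at 4.2, 1.36, 2.77, 8.88 and 43.1 RPKM (log2 fold -1.14; list median -0.55, -0.67 scaled).

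**Figure D4:**
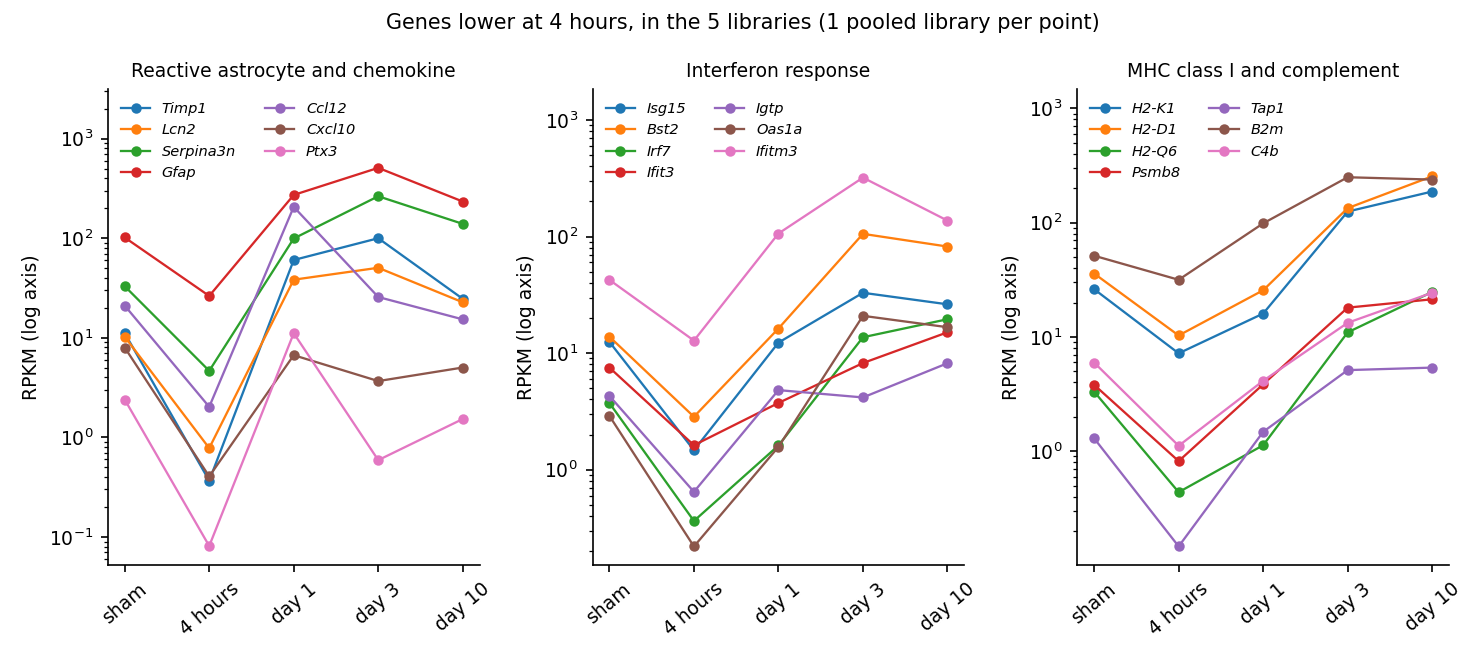
RPKM on a log axis against the 5 libraries in time order, for 7 reactive astrocyte and chemokine genes, 7 interferon response genes and 7 MHC class I and complement genes, each point 1 pooled library. All 21 genes are lower at 4 hours than in sham, and most are highest at day 3 or day 10.

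Few complement and phagocyte genes passed the limit, but only a minority had a log2 fold above 0. These were 5 of 15 complement and 10 of 27 phagocyte genes as deposited, against 78.1% of all genes. With scaling they were 1 of 15 and 6 of 27. Of 15 complement genes 1 was at least 2-fold lower, C4b of the classical pathway at 5.96, 1.12, 4.13, 13.3 and 24.4 RPKM (log2 fold -1.72; ratio 0.187, counting interval 0.156 to 0.224), and the list median was -0.16 (-0.24 scaled). The C1q chains of microglia lay nearer to sham, with C1qa at 80.1 against 108 RPKM (log2 fold -0.42, -0.82 scaled). In the activated phagocyte and lysosome list 2 of 27 were at least 2-fold lower (median -0.12, -0.35 scaled). Lyz2, the lysozyme of myeloid cells, was at 10.7, 3.94, 26.4, 97.9 and 245 RPKM (log2 fold -1.25), and Lgals3, a galectin of activated microglia and macrophages, at 2.37, 0.679, 28.1, 198 and 38.5 RPKM (log2 fold -1.01). The receptor adaptor Tyrobp was at 28.7 against 43.9 RPKM (log2 fold -0.59). Fcgr4, an IgG receptor, was at 2.73, 0.243, 6.62, 20.8 and 16.7 RPKM (log2 fold -1.59). Markers of resting microglia lay somewhat below the median of all genes. None of 17 passed the limit, and their median was 0.12 (-0.09 scaled), beside 0.28 (-0.01 scaled) for all genes. Of the 17, 12 had a log2 fold above 0 as deposited and 2 with scaling. Tmem119 was at 12.5 against 14 RPKM (log2 fold -0.15, -0.52 scaled), and Csf1r at 17.8 against 14.2 RPKM (0.31, -0.07 scaled).

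The median log2 fold of each list of blood leukocyte markers was below 0, beside 0.28 for all genes. Of 10 neutrophil markers measured, 6 were compared (median -0.43, -0.67 scaled), and 2 of these had a log2 fold above 0. Only Lcn2, which astrocytes also make, was 2-fold lower as deposited (2 genes with scaling). Of all genes compared, 1.09% were 2-fold lower as deposited and 2.03% with scaling. S100a8 was at 4.65, 2.1, 53, 3.82 and 3.93 RPKM (log2 fold -0.87). Of 14 monocyte and macrophage markers 8 were compared (median -0.39, -0.63 scaled), and 1 had a log2 fold above 0. Lyz2 was 2-fold lower as deposited (2 genes with scaling). Of 11 T and NK cell markers 5 were compared and none passed the limit (median -0.14, -0.24 scaled). With only genes of at least 1 RPKM in sham or at 4 hours, the T and NK cell median was 0.44. The haemoglobin genes of red cells, which blood left in the tissue would carry, did not pass the limit, with Hba-a1 at 1455 against 1018 RPKM (log2 fold 0.51) and Hbb-bs at 1062 against 928 RPKM (0.19, -0.21 scaled). Hba-a1 and Hba-a2 are near-identical copies.

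The lower genes also shared features of gene structure and position. The median span from start to end of the gene was 5.43 kb for the 43 lower protein-coding genes, 13 kb for the 189 higher ones and 19.2 kb for all. When all protein-coding genes were divided into 5 equal classes by span, the lower genes numbered 25, 13, 5, 0 and 0 from the shortest to the longest, and the higher genes 66, 30, 27, 37 and 29. The median exonic length was 2.09 kb for lower, 2.62 kb for higher and 3.92 kb for all genes. Of the 43 lower genes, 9 lie on chromosome 17, which carries the MHC and 518 of the genes compared. Another 8 lie on chromosome 11, the site of the Ccl2 cluster and several GTPases of the Igtp family, with 931 genes. Length, position and membership of the interferon and MHC families go together here, and their parts were not separated.

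The remaining lower genes were of mixed function. Cdr1, whose locus gives an abundant circular RNA of neurons, was at 18.4, 2.93, 6.73, 13.4 and 16.8 RPKM (log2 fold -2.3), and overlaps C230004F18Rik, so the value may belong to either. Tspo, a mitochondrial membrane protein used as an imaging target of glial activation, was at 9.45, 4.2, 18.2, 97.2 and 52.2 RPKM (log2 fold -1.01). Oxt, the precursor of oxytocin, a hormone of hypothalamic neurons, was at 1.24, 0.0405, 0.925, 0.0441 and 0.31 RPKM. Il1b, Tap1, Tspo and Oxt were picked out after their values were seen.

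Several higher genes are markers of choroid plexus epithelium. Transthyretin, Ttr, the carrier of thyroxine that choroid plexus epithelium secretes, was the highest of all protein-coding genes by log2 fold, at 77.4 RPKM in sham and 729 at 4 hours, then 303, 19.6 and 0.205 on days 1, 3 and 10 (log2 fold 3.22, 2.82 scaled; ratio 9.42, without an interval). Folr1, the folate receptor of that epithelium, was at 0.717, 4.48, 1.16, 0.247 and 0.145 RPKM (log2 fold 1.67; ratio 6.25, counting interval 4.41 to 9.11). Kcnj13, its potassium channel, was at 0.21, 2.31, 0.901, 0.0932 and 0.0164 RPKM (log2 fold 1.45; ratio 11, counting interval 4.76 to 30.8) and overlaps Gigyf2. All 3 were lower at each later time than at the time before. Of 15 choroid plexus markers in the table, all 15 were higher at 4 hours than in sham and none was at 0 in either library, but 8, Otx2, Kl and Kcne2 among them, stayed below 1 RPKM in every library. Their summed level, at 4 hours mostly Ttr, was 90.5, 761, 321, 142 and 24.6 RPKM. Among the 7 compared, 3 were at least 2-fold higher and the median was 0.88 (0.67 scaled). All 13 ependymal markers in the table were higher at 4 hours as well, with none of the 9 compared past the limit (median 0.49, 0.22 scaled). Among the genes compared, 7 of 7 choroid plexus and 9 of 9 ependymal markers had a log2 fold above 0, against 78.1% of all genes compared. With scaling 7 and 8 did. The counts of 15 and 13 include genes below the filter, for which no share over all genes was computed. Foxj1, the master factor of motile cilia, was at 4.83 against 3.23 RPKM (log2 fold 0.46). The part of tissue from the choroid plexus or the ventricle wall was not tested, either in these values or in the other comparisons. Next in order to Ttr and Ccn1 was 1500015O10Rik, which encodes the secreted peptide precursor augurin, at 0.962, 11.1, 4.5, 0.839 and 1.25 RPKM (log2 fold 2.62).

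Markers of cortical excitatory neurons were higher at 4 hours, 2 of them past the limit. Of 17 in the table, 16 were higher at 4 hours than in sham, and their summed level was 883, 1737, 921, 790 and 754 RPKM, most of it Nrgn. All 14 compared had a log2 fold above 0, as deposited and with scaling, against 78.1% of all genes as deposited. Of the 14, 2 were at least 2-fold higher, Nrn1 and Nrgn (1 with scaling, Nrn1), and the median was 0.67 (0.32 scaled). Of all genes compared, 2.20% were at least 2-fold higher as deposited and 0.540% with scaling. Nrgn, a calmodulin-binding protein of dendrites that striatal neurons make as well, was at 742, 1504, 715, 664 and 633 RPKM (log2 fold 1.02, 0.61 scaled). Tbr1, a factor of deep-layer cortical neurons, was at 2.37, 5.16, 3.71, 1.71 and 2.03 RPKM (log2 fold 0.87; ratio 2.18, counting interval 1.9 to 2.51), and Slc17a7, the vesicular glutamate transporter of cortex, at 59.1, 84.2, 86.6, 56.5 and 50 RPKM (log2 fold 0.50, 0.10 scaled). Neurod1 was at 0 in sham. Immediate early genes such as Npas4 and Fos were measured in the same libraries, and the part of cortical tissue in their values was not tested.

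Striatal projection neuron markers moved with the median of all genes. None of 29 compared passed the limit, and the median was 0.31, or -0.06 scaled, with a summed level of 3279, 4089, 1769, 2447 and 2868 RPKM. The neuropeptide precursors stood highest, with Penk of the indirect pathway at 432, 836, 236, 474 and 388 RPKM (log2 fold 0.95, 0.55 scaled) and Tac1 of the direct pathway at 30, 58.9, 31.5, 30.3 and 23.5 RPKM (log2 fold 0.95, 0.55 scaled). Interneuron markers had 1 of 12 past the limit, the somatostatin-related Cort at 6.53 against 2.76 RPKM (log2 fold 1.0, 0.66 scaled), with a median of 0.36, or -0.01 scaled. Sst was at 327 against 185 RPKM (log2 fold 0.82). None of 27 presynaptic genes (median 0.50, 0.10 scaled), 24 receptors of glutamate and GABA (0.21, -0.11 scaled) or 28 voltage-gated channels (0.06, -0.24 scaled) passed the limit. Rgs4, which shortens G protein signalling and is in the effector list, was at 75.9, 145, 43, 43 and 48.2 RPKM (log2 fold 0.93; ratio 1.91, counting interval 1.85 to 1.98).

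Several genes of myelin were higher at 4 hours. Of 26 markers of myelin and oligodendrocytes, all compared, 6 were at least 2-fold higher (3 with scaling) and none lower. Above 0 were 24 before and after scaling, against 78.1% of all genes as deposited. The median of the markers was 0.75 (0.36 scaled), and their summed level was 1457, 2444, 2180.2, 1629 and 1622 RPKM. Mog, a protein of the outermost myelin layer, was at 33.2, 105, 43, 35 and 41.8 RPKM (log2 fold 1.63; ratio 3.15, counting interval 2.96 to 3.36). Mal, a raft protein of myelin, was at 23.8, 71.5, 21.6, 16.3 and 16.8 RPKM (log2 fold 1.55; ratio 3.01, counting interval 2.84 to 3.2), and Cldn11, which seals the layers, at 65.7, 189.9, 85.6, 86 and 61.4 RPKM (log2 fold 1.52; ratio 2.89, counting interval 2.77 to 3.02). These genes were highest at 4 hours. Gsn and Enpp2 were at 61.7 against 23.5 RPKM (log2 fold 1.35, 0.95 scaled) and 14.7 against 5.42 RPKM (1.29, 0.92 scaled), and choroid plexus makes Enpp2 as well. The major compact myelin gene Mbp was at 896 against 611 RPKM (log2 fold 0.55, 0.15 scaled), and Ermn and Apod were at 1.92 against 2.09 RPKM (-0.09) and 109.7 against 120.5 RPKM (-0.13). The lineage factors Olig1 and Olig2 were at 90.9 against 43.6 RPKM (log2 fold 1.04, 0.64 scaled) and 12.5 against 5.64 RPKM (1.02, 0.65 scaled), the 2 past the limit among 10 precursor and lineage markers compared, neither of them with scaling (median 0.40, 0.04 scaled). The sources used here do not state how much white matter each pool held, and its part in these values was not tested.

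**Figure D5:**
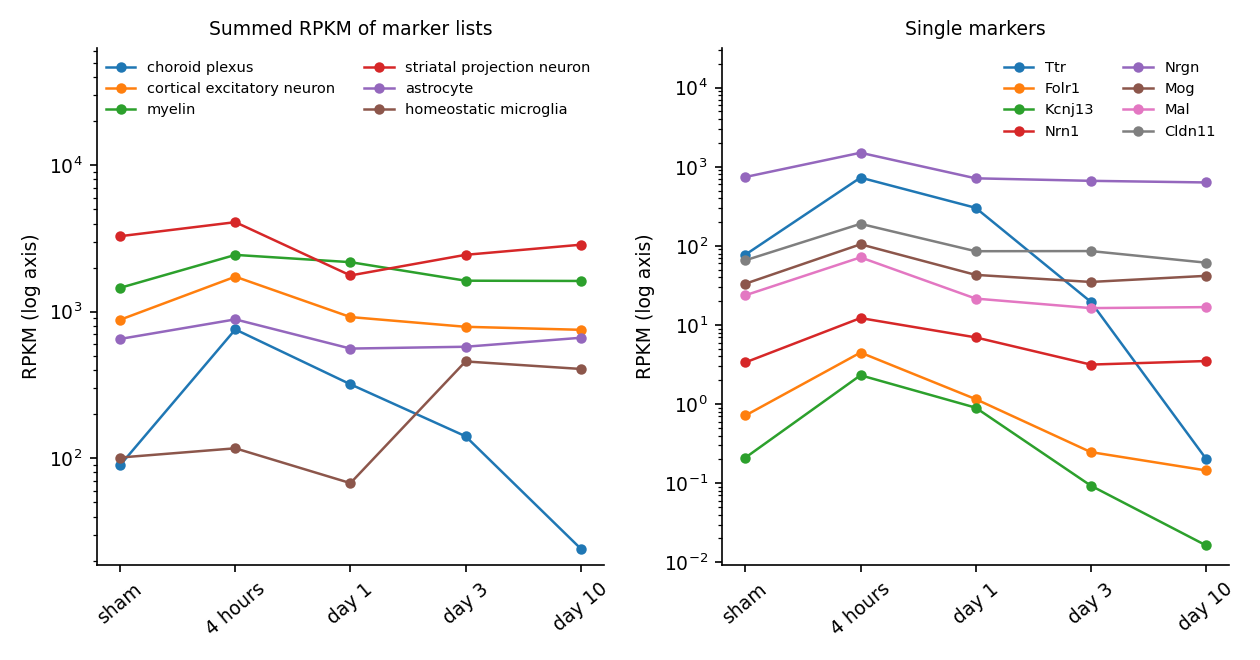
RPKM on a log axis against the 5 libraries in time order, as the summed level of 6 marker lists in the left panel and as 8 single genes in the right panel, each point 1 pooled library. The choroid plexus sum is highest at 4 hours and lowest at day 10, the myelin and cortical sums are highest at 4 hours, and the projection neuron sum is lowest at day 1.

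For their number, more small RNA genes than mRNA genes passed the limit. Among miRNA genes, 26 of 218 compared were at least 2-fold higher and 13 lower. Their median was 0.06 (-0.29 scaled), beside 0.28 (-0.01 scaled) for all genes. RefSeq's table for GRCm38.p6 held an entry for 125 of the 218. The mature arms of some miRNA families, picked by hand and not by rank, are shown with the seed, bases 2 to 8, in capitals. The seed selects the targets, and the gene copies of a family share it.
miR-9-5p, from Mir9-1, Mir9-2 and Mir9-3: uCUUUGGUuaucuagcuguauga
miR-125b-5p, from Mir125b-1 and Mir125b-2: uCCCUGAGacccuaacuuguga
miR-7a-5p, from Mir7-1 and Mir7-2: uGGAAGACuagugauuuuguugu
miR-128-3p, from Mir128-1 and Mir128-2: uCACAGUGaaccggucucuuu
miR-99a-5p, from Mir99a: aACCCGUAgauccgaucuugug
let-7c-5p, from Mirlet7c-1: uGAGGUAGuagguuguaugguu
miR-21a-5p, from Mir21a: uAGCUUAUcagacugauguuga
Reads on Mir9-1 (chr3:88215598-88215686) numbered 1 in sham and 77 at 4 hours, then 1, 52 and 1 on days 1, 3 and 10. Those on Mir9-2 numbered 3, 78, 0, 51 and 0 and those on Mir9-3 numbered 1, 79, 2, 52 and 0. The 3 loci share the mature sequence, so reads of it cannot be assigned to 1 of them, and Mir9-1 also lies opposite Gm25641. Mir125b-1 had 1, 14, 0, 4 and 0 reads and Mir125b-2 had 0, 13, 0, 4 and 0. Mir7-1 had 4, 22, 8, 16 and 5 reads and Mir7-2 had 0, 18, 0, 7 and 0. Mir128-1 had 1, 6, 0, 10 and 0 reads, Mir128-2 had 0, 12, 0, 9 and 0, Mir99a had 5, 26, 0, 22 and 0 and Mirlet7c-1 had 0, 8, 0, 8 and 0. Reads on these loci were thus found in the 4-hour and day 3 libraries and were few or none in the sham, day 1 and day 10 libraries, for neuronal miR-9, miR-7a and miR-128 as for the widely expressed others. The same 2 libraries had the lowest shares of reads on ribosomal RNA loci, 26.5% at 4 hours and 28.8% at day 3, against 34.4% at day 1, 37.5% at day 10 and 41.2% in sham. The part of library composition in the miRNA reads was not tested. Of the miRNA genes shown, only Mir21a, an injury-responsive miRNA gene that lies within Vmp1, was lower at 4 hours than in sham. It had 41, 4, 17, 11 and 3 reads, and 9.92 against 0.946 RPKM in sham and at 4 hours (log2 fold -2.49). Among all 218 miRNA genes compared, 13 were at least 2-fold lower.

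Other structural RNAs differed by class. Of all genes compared, 2.20% were at least 2-fold higher and 1.09% lower (median 0.28, -0.01 scaled). Of 44 spliceosomal snRNA genes 22 were at least 2-fold lower and none higher (median -1.01, -1.33 scaled), and of 20 rRNA genes 12 were lower (median -1.3, -1.54 scaled). Of 113 snoRNA genes 7 were higher and 24 lower (median 0.08, -0.26 scaled). Among 22 mitochondrial tRNA genes 10 were higher and 2 lower (median 0.82, 0.42 scaled). These counts are as deposited. mt-Td, for aspartate, was at 28, 346, 190.3, 279.9 and 32.4 RPKM (log2 fold 3.58), and mt-Tg, for glycine, at 100.5, 761, 703, 433 and 90.7 RPKM (log2 fold 2.91). mt-Tq, for glutamine, went the other way, at 366, 80.6, 106, 412 and 79.2 RPKM (log2 fold -2.17). The lowest log2 fold of any gene was that of Gm24187, a predicted gene of the miRNA class. It was at 4366, 29.4, 32.2, 46.1 and 166 RPKM (log2 fold -7.17) and stood out through its level in sham. Antisense transcripts and lincRNAs were nearer to mRNAs, with 17 of 523 and 7 of 215 at least 2-fold higher and 1 of each lower.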

How the data were processed

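RNA was measured in 5 pooled libraries of punched caudate putamen, using Trizol and a Vazyme total RNA library kit, per the labels' protocols. Depth was 42261766 to 48013865 reads per library. HISAT2 2.1.0, StringTie 1.3.4d, Trimmomatic 0.36 and the build GRCm38 are named in the submitters' processing notes, without roles. The annotation version, the strand setting and whether mates were counted separately are not given in the sources used here. For each gene and library, the authors deposited 1 RPKM value, per the file headers, with log2 folds and GFOLD values (log2 folds shrunk for few reads, at the setting 0.01) between libraries. The deposited p-values were not used, since their test is not stated.

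Gene identifiers were joined to GENCODE mouse release M21 (19158 of 19221 matched, 99.7%). Whole reads were recovered as RPKM times exonic length and library total: 90.4% to 90.5% of values below 5000 reads were whole within 0.02 of a read. Genes that reached 1 RPKM in any library were compared as log2((4-hour RPKM + 1) / (sham RPKM + 1)), with a pseudocount of 1 and a limit of 1 in either direction. With 1 library per group no test across samples exists, so no p-value or SD was computed. Ratios have 95% exact conditional binomial intervals on reads divided by 2, where both reads were whole. Steps were checked on simulated data.

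The gene lists and members were chosen with earlier results of these data known. Named genes are the 25 protein-coding genes with the highest and with the lowest log2 fold, up to 6 highest and 6 lowest and the 3 most abundant of each of 58 lists, and all early-response list members. Added to these are the 10 noncoding or predicted genes at either end by log2 fold and the 10 genes of any kind at either end by RPKM change. Some of the miRNA genes given with reads were picked by hand outside this rule. Alternatives were pseudocounts of 0.1 and 0.5, no filter or one of 5 RPKM, a filter on the 2 libraries alone, median-of-ratios and trimmed-mean scaling (30% of M and 5% of A trimmed), removal of ribosomal, mitochondrial, predicted and small RNA genes, the deposited GFOLD value, and limits of 1.5-fold and of 2 on the log2 scale. Promoter and miRNA sequences come from RefSeq tables of GRCm38.p6. Python 3.11.15, numpy 2.4.6, scipy 1.17.1, pandas 2.3.3 and matplotlib 3.10.9 were used. A few list members are not reported here.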

Additional observations from a re-analysis of the deposited data

How the results depend on the processing

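The count of genes at least 2-fold higher at 4 hours, 281 as reported, depended on the pseudocount, the scaling and the limit. It was 835 with a pseudocount of 0.1, 456 with 0.5, 69 with median-of-ratios scaling, 72 with trimmed-mean scaling, 28 with ribosomal, mitochondrial, predicted and small RNA genes left out and the rest rescaled, 16 at a limit of 2 on the log2 scale and 2360 at 1.5-fold. The count of genes at least 2-fold lower, 139 as reported, was 377 with a pseudocount of 0.1, 260 and 250 with the same scalings, 85 with those genes left out, and 22 and 388 at the same limits. Alternatives chosen after seeing the data gave 43 lower genes among protein-coding genes, and 37 higher and 71 lower among these with median-of-ratios scaling. The cause of these changes was not tested beyond the construction of each alternative. The filters, the authors' deposited GFOLD value (302 higher and 147 lower) and a counting interval that must exclude 1 (243 and 117) kept both counts within 1.5 times. Of the named genes past the limit, 42 of 79 higher and 43 of 43 lower ones stayed past it with median-of-ratios scaling, which turned the sign of 17 of 58 list medians. With ribosomal, mitochondrial, predicted and small RNA genes left out, 24 of 59 higher and 31 of 31 lower named genes stayed past it, and 19 of 57 list medians changed sign. No paired analysis was possible because each group is 1 pooled library. Depth limits genes of few reads, such as single miRNA genes.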
